A study of Mus musculus with 8 samples.

Results

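*Igf1* encodes insulin-like growth factor 1, a secreted peptide that acts on cells through a receptor tyrosine kinase. The liver supplies most of the circulating peptide under the control of growth hormone, while chondrocytes, bone-forming cells and other connective tissue cells also make it locally. In joints it is best known as a signal that drives the making of cartilage matrix and the lengthwise growth of bone at the growth plate. *Igf1* (NCBI gene 16000) was 1 of 67 target mRNAs measured by branched DNA assay and lay in the first of 2 probe panels, among 33 targets. Its row was found by its gene symbol, and it is the single insulin-like growth factor read here. Its receptor and binding proteins were not analysed here.

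The samples were homogenates of formalin-fixed, paraffin-embedded knee joint sections from 8 inbred mouse strains, 1 sample per strain. LG/J, MRL/MpJ and LGXSM-6 were labelled healers, SM/J, C57BL6/J and LGXSM-33 non-healers, and LGXSM-5 and LGXSM-35 intermediate healers. The 4 LGXSM strains are recombinant inbred lines from a cross of LG/J with SM/J. All mice of all strains had full-thickness cartilage surgery on the knee at 8 weeks of age, so there was no unoperated group, and the tissue was taken some weeks later from several mice of each strain. By the study's methods the homogenates mixed cartilage and growth plate with the bone beneath them, the meniscus, the synovium and the joint capsule. In such a mixture, fewer cells of a type and less mRNA per cell cannot be told apart. The defining markers of cartilage and bone gave signals in every assay replicate of every strain, with lowest values of 527 for *Col2a1*, the main collagen of cartilage, and 6562 for *Col1a1*, the main collagen of bone.

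*Igf1* was read 76 times, with 8 assay replicates in LG/J and SM/J, 12 in LGXSM-6 and LGXSM-33 and 9 in each of the other strains. An assay replicate is a numbered signal of a strain, and the labels do not say which signals came from the same mouse, although the methods name both biological and technical replicates. P-values and intervals over assay replicates therefore count repeats of the same tissue as if they were separate samples. The *Igf1* signal before normalization, in the arbitrary units of the bead reader, ranged from 30 to 373 with a median of 108.7. The deposited tables hold 1 signal per assay replicate without its spread over beads, so no interval is given for a single value. Normalized values, given below on the log2 scale, are what is left of the *Igf1* signal after a regression on its 3 reference genes (*Gapdh*, *Hprt1*, *Actb*), and 0 is the value predicted from these.

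A pair of places in the *Igf1* data stood apart. In Signal 9 of LGXSM-35 the deposited normalized values sat 2 rows away from their genes. Each of the 31 values that could be compared equalled, within 0.001 on the log10 scale, the residual recomputed for the target 2 rows further down. The value of −0.30 in the *Igf1* row is thus the residual of *Adamts5*, and the residual recomputed for *Igf1* was −1.11. In the other 75 assay replicates the deposited and recomputed values of all 33 targets were the same within that tolerance. Differences from LGXSM-35 are given below with the recomputed value beside the deposited one. The other place was Signals 3 to 5 of SM/J, in which the median *Gapdh* signal was 1699, against 18315 in Signals 1 and 2 and 14959 in Signals 6 to 8.

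The strains differed in *Igf1*. LGXSM-33 had the highest mean, LGXSM-6 came next, and the intermediate healers LGXSM-5 and LGXSM-35 had the lowest. In an F test across the 8 strains, fitted with limma over all 67 targets, *Igf1* had the fifth smallest P value (F = 16.0, adjusted P = 2.72e-11, or 1.11e-11 with recomputed values). Differences between strains were common in these panels, as 55 of the 67 targets, or 82.1%, passed the same test.

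LGXSM-33 gave *Igf1* signals from 142.5 to 373 with a median of 212, and normalized values from 0.30 to 0.94 with a mean of 0.69 ± 0.23 (SD, n = 12). LGXSM-6 gave signals from 121.5 to 297 with a median of 228, and normalized values from 0.15 to 1.03 with a mean of 0.46 ± 0.32 (SD, n = 12). In these lines every assay replicate lay above 0. They are the only strains of the 8 in which that was so.

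Among the middle strains, MRL/MpJ had the widest spread of all. Its normalized values ran from −0.50 to 1.04 around a mean of 0.11 ± 0.69 (SD, n = 9), and its signals from 93.5 to 203.5 with a median of 149.5. C57BL6/J had a nearly equal mean with a much smaller spread, at 0.01 ± 0.18 (SD, n = 9), a range of −0.19 to 0.33 and a median signal of 63. SM/J had a mean of −0.04 ± 0.43 (SD, n = 8), a range of −0.70 to 0.56 and a median signal of 82.

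LG/J lay lower, from −0.86 to 0.20 with a mean of −0.37 ± 0.37 (SD, n = 8) and a median signal of 81.5. LGXSM-35 ran from −1.39 to −0.02 with a mean of −0.56 ± 0.45 (SD, n = 9) and a median signal of 99. With Signal 9 recomputed its mean was −0.65 ± 0.48, just below that of LGXSM-5. LGXSM-5 was the most even strain, from −0.84 to −0.42 with a mean of −0.64 ± 0.16 (SD, n = 9) and a median signal of 82. Every assay replicate of these intermediate healers lay below 0, and 2 of the 8 in LG/J lay above it.

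**Figure D1:**
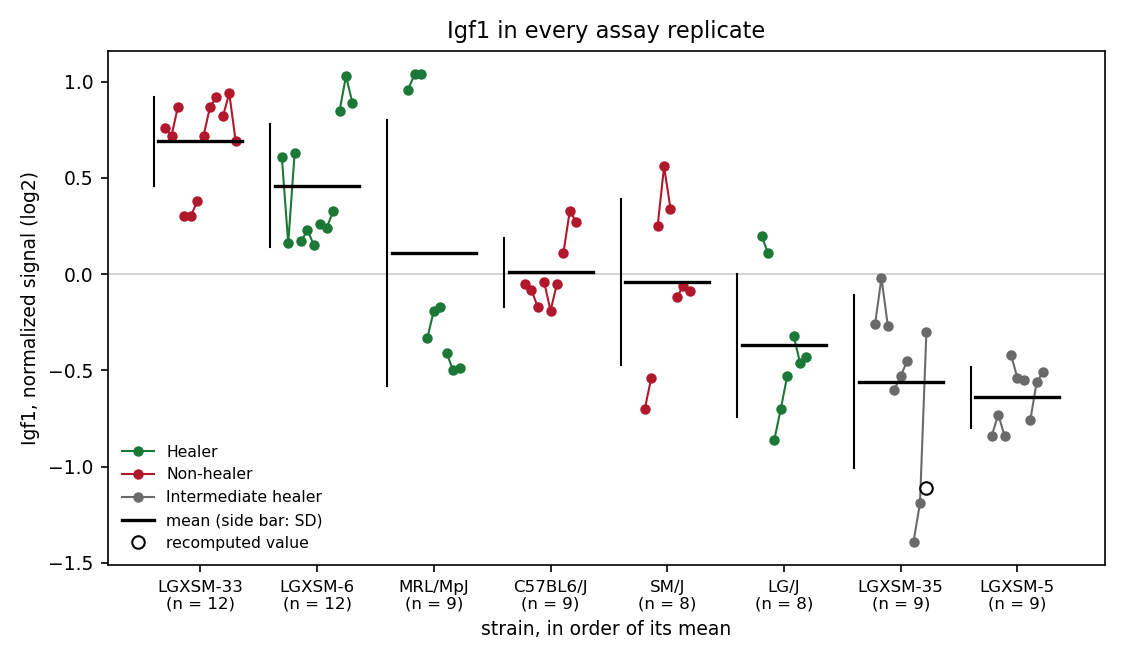
Normalized *Igf1* signal (log2, vertical axis) of each assay replicate in each strain (horizontal axis, ordered by mean), coloured by the healing label. Lines join runs of neighbouring signal numbers, the black bar is the mean, the side bar is the SD and the open circle is the recomputed value of LGXSM-35 Signal 9, −1.11. The 12 values of LGXSM-33 all lie above the 9 of LGXSM-5, and the values of MRL/MpJ fall into a high run near 1.02 and lower runs near −0.23 and −0.47.

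Neighbouring signal numbers gave like values, and this shaped the spread within strains. In MRL/MpJ, Signals 1 to 3 were 0.96, 1.04 and 1.04, Signals 4 to 6 were −0.33, −0.19 and −0.17, and Signals 7 to 9 were −0.41, −0.50 and −0.49. The first run had lower *Gapdh* signals and higher *Igf1* signals than the others, with a median *Gapdh* signal of 10221 against 23462 and 15177, and *Igf1* signals of 188.5 to 203.5 against 142 to 160 and 93.5 to 106. In SM/J the runs averaged −0.62, 0.38 and −0.09, and the high middle run is the one with the low reference signals and with *Igf1* signals of only 30 to 38. The run of SM/J that was highest after normalization was thus the lowest before it, whereas in MRL/MpJ the runs kept their order.

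When the signals were taken as 26 runs of neighbours, mostly of 3, values differed on average by 0.07 within the runs of MRL/MpJ and by 0.99 between them. In each of the other strains the difference between runs was also larger than that within them, at 0.21 to 0.64 against 0.11 to 0.33. A variance decomposition placed 51.1% of the *Igf1* variance between strains, 42.3% between runs of a strain and 6.59% within runs. With LGXSM-35 recomputed these shares were 51.5%, 45.5% and 3.01%. The medians over the 67 targets were 14.6%, 56.8% and 19.7%, so the *Igf1* share between strains was high for these panels and its share between runs was below the median. The labels do not tie the runs to mice, and they were defined after the values had been seen. The paper describes 3 replicates of each measure, so a run may hold the repeats of a single mouse. The labels cannot settle that.

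The share of variance between strains, by the formula for broad-sense heritability, was 60.8% over assay replicates (SE 17.8, jackknife over the 8 strains, or 61.9% with recomputed values), the fifth highest of the 67 targets. The paper averaged the values of each individual first, so this share over repeats is not the same measure as its heritability. Over the 26 runs the share was 51.3% (SE 24.6), the seventh highest, against a median over the targets of 19.9%. Leaving out a strain moved the share over assay replicates between 48.5%, without LGXSM-33, and 72.5%, without MRL/MpJ. Over runs it ranged from 34.2% without LGXSM-33 and 42.4% without LGXSM-5 to 67.3% without MRL/MpJ. With only LG/J, SM/J and the 4 lines bred from them it was 74.1% over assay replicates.

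Of the 28 pairs of strains, 18 differed in *Igf1* with an adjusted P under 0.05 (limma, adjusted over all 1876 tests of 67 targets and 28 pairs). Over all targets 29.5% of these tests passed. *Igf1* was among the targets with many such pairs, as the median target had 8 and the highest 23. In 6 of the 28 pairs the assay replicates did not overlap at all, against 7.25% of pairs over all targets. Those pairs set LGXSM-33 against LGXSM-5, LGXSM-35 and LG/J, LGXSM-6 against LGXSM-5 and LGXSM-35, and C57BL6/J against LGXSM-5. LGXSM-33 lay 1.33 above LGXSM-5 (SE 0.17, 95% interval 1.00 to 1.66, adjusted P = 1.49e-09), which is 2.52-fold. It lay 1.25 above LGXSM-35 (SE 0.17, adjusted P = 8.77e-09), or 1.34 above it with Signal 9 recomputed (adjusted P = 1.6e-09).

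No pair of neighbours in the order of the means passed. From the top down, the neighbouring means differed by 0.23, 0.36, 0.09, 0.06, 0.33, 0.18 and 0.08, with adjusted P values from 0.102 to 0.841. The order of strains that lie next to each other is thus not resolved at this spread. It can be read as higher and lower ends. LGXSM-33 and LGXSM-6 were at the high end, 0.23 apart (95% interval −0.08 to 0.54, or −0.36 to 0.82 over runs). LGXSM-35 and LGXSM-5 were at the low end, 0.08 apart (95% interval −0.27 to 0.44, or −0.60 to 0.76 over runs). With recomputed values these low strains were 0.01 apart in the opposite order (adjusted P = 0.98).

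With the mean of each run as the unit, the strain F test for *Igf1* still passed in the deposited values (adjusted P = 0.0196), as it did in 13.4% of the 67 targets. That call was lost over runs when *Igf1* was divided by the 3 references (adjusted P = 0.0596) or by *Gapdh* (adjusted P = 0.142). In the deposited values the run means did not overlap in 10 of the 28 pairs, against 18.7% over all targets, and only 2 pairs passed, against 2.88% over all targets. The 2 were LGXSM-33 above LGXSM-5 (1.33, SE 0.31, adjusted P = 0.0166) and LGXSM-33 above LGXSM-35 (1.25, SE 0.31, adjusted P = 0.0264, or 1.34 and 0.0215 with recomputed values). LGXSM-6 lay 1.10 above LGXSM-5 with an adjusted P of 0.0553. The other 15 pairs that passed over assay replicates had adjusted P values over runs from 0.0791 to 0.589.

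**Figure D2:**
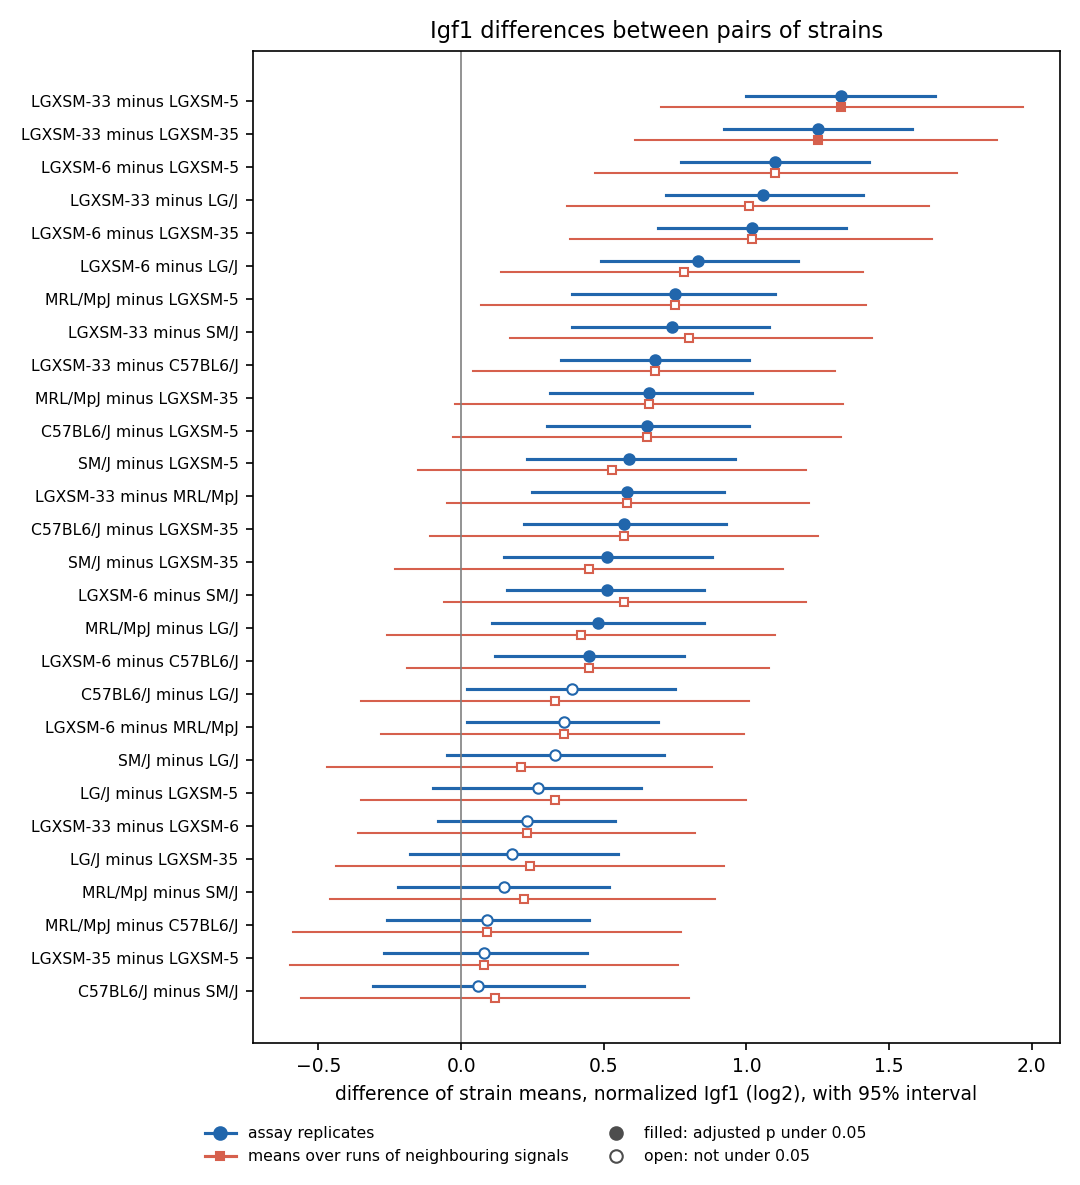
Difference of strain means in normalized *Igf1* (log2, horizontal axis) for the 28 pairs of strains, with 95% intervals. Circles use assay replicates and squares use means over runs of neighbouring signals, and filled marks have an adjusted P under 0.05. Filled circles stand in 18 pairs and filled squares in 2, both of them LGXSM-33 against an intermediate healer.

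LG/J and SM/J are the parents of the LGXSM lines, so each line can be set against both. The parents themselves were not shown to differ, with LG/J 0.33 below SM/J (SE 0.19, adjusted P = 0.192). The 95% interval of SM/J minus LG/J was −0.05 to 0.71 over assay replicates and −0.47 to 0.88 over runs. Without Signals 3 to 5 of SM/J, LG/J lay 0.07 below it. As each signal number was left out in turn, LG/J minus SM/J ranged from −0.50 without Signal 1, where it passed, to −0.19 without Signal 4. It was 0.24 without normalization. LG/J passed as lower than SM/J under 3 of 7 normalizations, at −0.93 as a ratio to the 3 references (adjusted P = 0.00173), −1.04 with *Hprt1* (adjusted P = 0.00134) and −1.40 with *Actb* (adjusted P = 1.37e-05). Of 11 pairs fixed for the parents, the lines and the MRL/MpJ with C57BL6/J pair, 6 passed over assay replicates and 0 over runs. Over all 67 targets, the share that passed over assay replicates was 28.4% for LG/J against SM/J, 22.4% for LGXSM-6 against LGXSM-33 and 17.9% for MRL/MpJ against C57BL6/J.

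LGXSM-33 was above both parents, by 1.06 over LG/J (SE 0.17, adjusted P = 1.08e-06) and by 0.74 over SM/J (SE 0.17, adjusted P = 0.000586), comparisons in which 40.3% and 35.8% of all targets passed. LGXSM-6 was also above both, by 0.83 over LG/J (SE 0.17, adjusted P = 0.000104) and by 0.51 over SM/J (SE 0.17, adjusted P = 0.02), where 34.3% and 29.9% passed. Over runs these 4 differences were 1.01, 0.80, 0.78 and 0.57, with adjusted P values of 0.0851, 0.195, 0.207 and 0.396. The excess of LGXSM-33 over SM/J passed with none of the 4 ratios to reference genes, at 0.26 with the 3 references (adjusted P = 0.37), 0.37 with *Gapdh* (adjusted P = 0.203), 0.27 with *Hprt1* (adjusted P = 0.398) and 0.15 with *Actb* (adjusted P = 0.657). LGXSM-6 was not above both parents with any of the ratios to the 3 references, *Hprt1* or *Actb*. Against SM/J it passed as lower there, at −0.78 (adjusted P = 0.0042), −1.22 (adjusted P = 5.48e-05) and −1.49 (adjusted P = 6.93e-07), and from LG/J it differed by 0.15 (adjusted P = 0.609), −0.18 (adjusted P = 0.585) and −0.09 (adjusted P = 0.803). With *Gapdh* it was 0.37 above SM/J (adjusted P = 0.204) and 0.73 above LG/J (adjusted P = 0.00885). In the deposited values, means of these lines lay outside the range of the parental means on the high side, which the runs did not resolve.

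LGXSM-5 and LGXSM-35 had lower means than either parent in the deposited values. LGXSM-5 was 0.59 below SM/J (SE 0.18, adjusted P = 0.00991) and 0.27 below LG/J (adjusted P = 0.289), where 28.4% and 37.3% of all targets passed. LGXSM-35 was 0.51 below SM/J (adjusted P = 0.0282, or 0.60 with an adjusted P of 0.00919 when recomputed) and 0.18 below LG/J (adjusted P = 0.479, or 0.27 with an adjusted P of 0.272 when recomputed), where 20.9% and 28.4% passed. As deposited, LGXSM-35 minus SM/J lost its call when signal number 4, 5, 7 or 8 was left out, at −0.42, −0.46, −0.41 and −0.44. Without the low-reference Signals 3 to 5 of SM/J, the differences of LGXSM-5 and LGXSM-35 from SM/J shrank to 0.34 (adjusted P = 0.213) and 0.25 (adjusted P = 0.358), while LGXSM-33 and LGXSM-6 were then 0.99 and 0.76 above SM/J. LGXSM-5 and LGXSM-35 each passed as lower than SM/J under 6 of 7 normalizations. Without normalization they were instead 0.24 and 0.37 above it (adjusted P = 0.455 and 0.233), and LGXSM-35 was 0.13 above LG/J (adjusted P = 0.701). MRL/MpJ and C57BL6/J, the strains from outside the cross, were 0.09 apart (95% interval −0.26 to 0.45, adjusted P = 0.731). Over runs that interval was −0.59 to 0.77.

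The reference genes differed between strains, and *Gapdh* departed from the other two in some of them. *Gapdh* encodes a glycolytic enzyme, *Hprt1* a purine salvage enzyme and *Actb* cytoplasmic actin. LGXSM-33 had a median *Gapdh* signal of 16067.0, close to the 18668.0 of LGXSM-6, but a *Hprt1* signal of 99.5 against 322.5 and an *Actb* signal of 4230 against 14508.5. Over the 76 assay replicates the log signals of *Hprt1* and *Actb* had r = 0.97, and those of *Gapdh* and *Hprt1* r = 0.81, values that share wells and amounts of tissue. The log *Igf1* signal had r = 0.70 with *Gapdh*, 0.63 with *Hprt1* and 0.59 with *Actb*. The 3 reference genes explained 50.3% of the variance of the log *Igf1* signal, against a median of 72.1% over the targets. In that regression the slope was 0.58 on *Gapdh*, −0.03 on *Hprt1* and 0.16 on *Actb*, so the correction taken off the *Igf1* signal leaned mostly on *Gapdh*. With *Hprt1* and *Actb* so closely correlated, the split of the slope between them is loosely determined.

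**Figure D3:**
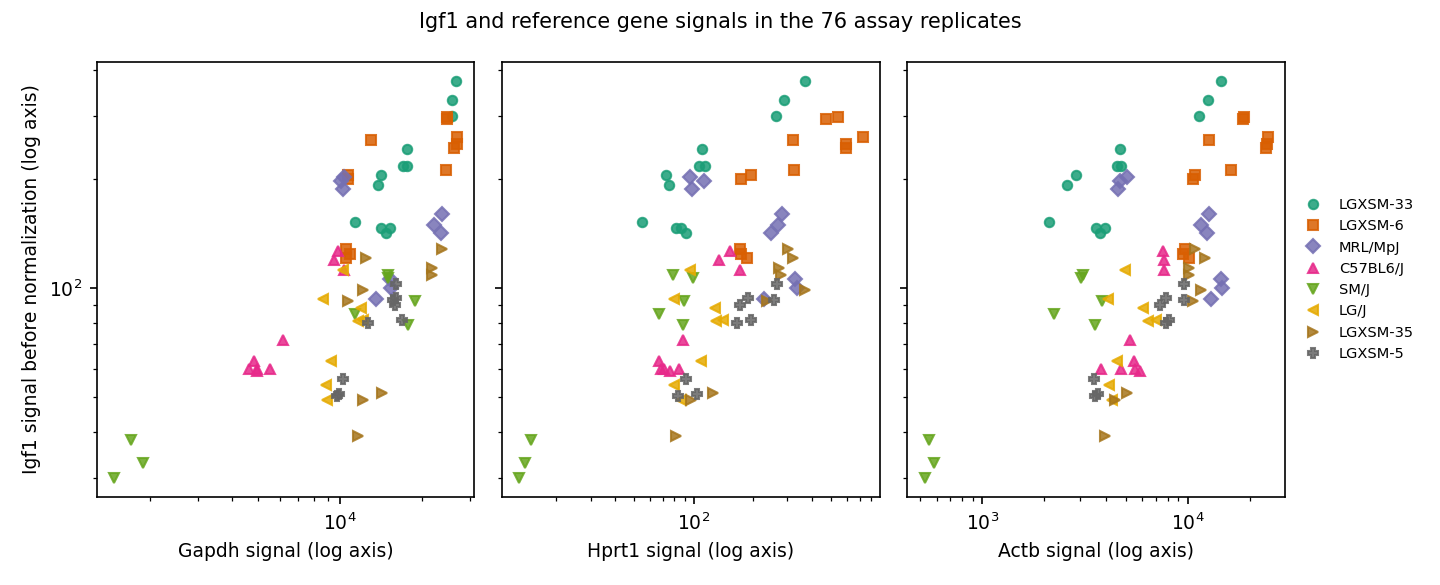
*Igf1* signal before normalization (vertical axis, log scale) against the signal of each reference gene (horizontal axes, log scale) in the 76 assay replicates, with a symbol for each strain. Signals 3 to 5 of SM/J form the separate group at the lowest reference signals, and LGXSM-33 lies with LGXSM-6 on the *Gapdh* axis but mostly to its left on the *Hprt1* and *Actb* axes.

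The place of each strain was therefore compared under 7 normalizations. LGXSM-33 had the highest *Igf1* mean under all of them, though with the ratio to *Gapdh* it was level with LGXSM-6 (difference 0.00, adjusted P = 0.998). Without normalization it was only 0.03 above LGXSM-6 (adjusted P = 0.914). LGXSM-5 and LGXSM-35 had the lowest means under all but the signals without normalization, where SM/J was lowest. LGXSM-33 passed against LGXSM-5, LGXSM-35 and LG/J under each of the 7 over assay replicates, and these were the only 3 of the 28 pairs that did so. LGXSM-33 minus LGXSM-5 ranged from 1.13 with the ratio to *Gapdh* to 1.90 with the ratio to *Hprt1*. Over runs it passed under 5 of the 7, with adjusted P values from 0.0166 to 0.171. LGXSM-33 minus LGXSM-35 also passed over runs under 5 (0.0141 to 0.159), but LGXSM-33 minus LG/J under only 1 (0.049 to 0.522). The direction was the same under all 7 in 13 of the 28 pairs.

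LGXSM-6 and SM/J changed places most. Relative to the mean of the 8 strains, LGXSM-6 was at 0.50 in the deposited values, 0.98 without normalization, 0.47 with the ratio to *Gapdh*, −0.05 with the ratio to the 3 references, −0.29 with *Hprt1* and −0.32 with *Actb*. SM/J went the other way, from 0.00 in the deposited values and −0.72 without normalization to 0.73, 0.93 and 1.17 with the ratios to the 3 references, *Hprt1* and *Actb*. LGXSM-6 was 1.70 above SM/J without normalization (adjusted P = 1.95e-08) and 1.49 below it with the ratio to *Actb* (adjusted P = 6.93e-07), so that this pair passed in opposite directions. The same held for MRL/MpJ against SM/J. C57BL6/J, 0.06 above SM/J in the deposited values (adjusted P = 0.841), passed as lower than it under 3 normalizations, with differences down to −1.56. LGXSM-6 was 0.45 above C57BL6/J in the deposited values (adjusted P = 0.0347), at −0.08 from it with the ratio to the 3 references and at −0.35 with *Hprt1* (adjusted P = 0.246). With the ratio to *Gapdh*, LGXSM-33, LGXSM-6 and C57BL6/J were level at 0.47, 0.47 and 0.45. LGXSM-33 and LGXSM-6 differed by 0.23 in the deposited values, by 1.49 with *Hprt1* (adjusted P = 1.46e-07) and by 1.64 with *Actb* (adjusted P = 5.9e-09).

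Ratios to different reference genes move all targets of a strain together, so *Igf1* was also set against the median difference of the 33 targets of its panel. Between LGXSM-33 and LGXSM-6 that median ran from −0.82 with the ratio to *Gapdh* to 0.82 with the ratio to *Actb*. A ratio shifts every target of a well by the same amount, so relative to that median all 4 ratios and the signals without normalization give 1 and the same value by construction. For LGXSM-33 minus LGXSM-6 this value was 0.82 above the median, against 0.22 above it in the deposited values. LGXSM-33 minus LGXSM-5 lay 1.38 above the panel median on the signal and was there the largest difference of the 33 targets, and 0.99 above it in the deposited values, where it was the second largest after *Acan*. These strains are the extremes of *Igf1* itself, so its high rank between them was favoured by that choice. LGXSM-6 minus SM/J lay 0.27 below the median on the signal, at rank 20 of 33, and 0.20 above it, at rank 10, in the deposited values.

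**Figure D4:**
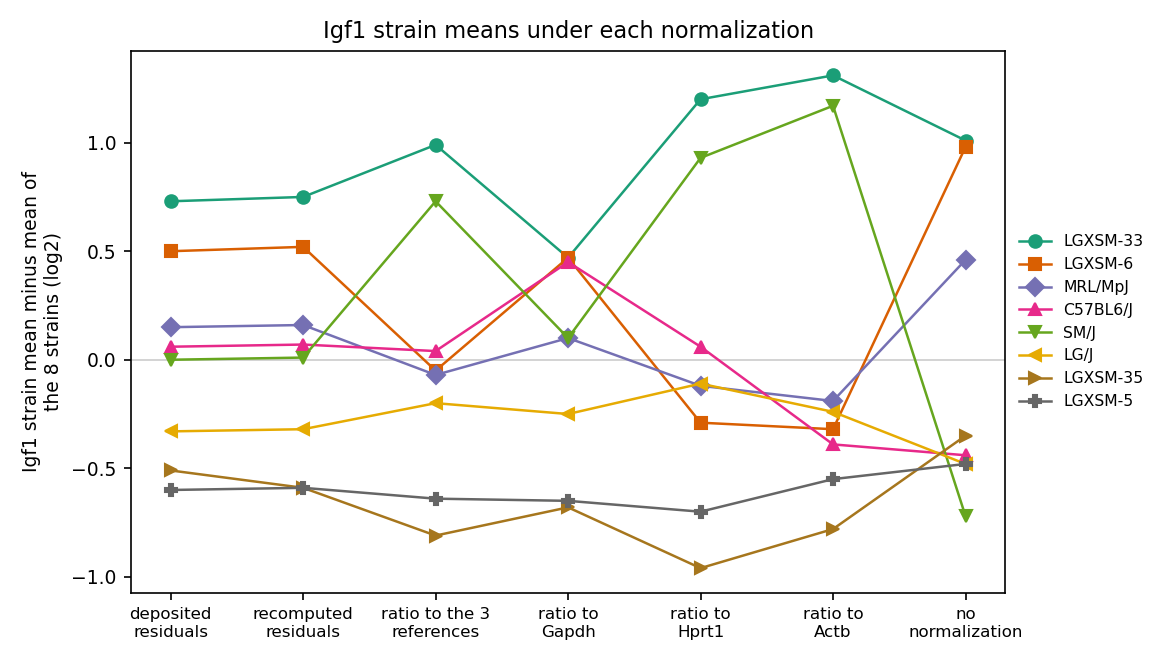
Strain means of *Igf1* minus the mean of the 8 strains (log2, vertical axis) under 7 normalizations (horizontal axis), with a line and symbol for each strain. LGXSM-33 is at the top throughout, between 0.47 and 1.31, but level with LGXSM-6 for the ratio to *Gapdh*. SM/J moves between −0.72 and 1.17 and LGXSM-6 between −0.32 and 0.98.

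The healing labels did not separate the deposited *Igf1* values. The 3 healers had strain means of −0.37, 0.11 and 0.46 and the 3 non-healers of −0.04, 0.01 and 0.69, so that the groups overlapped. The strains with the highest means, LGXSM-33 and LGXSM-6, carry opposite labels. Healers minus non-healers was −0.16 (SE 0.26, 95% interval −0.74 to 0.43, limma adjusted P = 0.898, two-sided exact permutation P = 0.7). With 3 strains against 3 that permutation test cannot go below 0.1. No target passed the same comparison (0 of 67 by limma, 0%), and 4 had an unadjusted P under 0.05. Both intermediate healers lay below all 6 other strains, at −0.56 and −0.64, a description that was not tested as a class of 2 strains. The difference became 0.37 without normalization, −0.69 as a ratio to the 3 references (95% interval −1.27 to −0.12, limma adjusted P = 0.157), −0.24 as a ratio to *Gapdh* (adjusted P = 0.721), −0.90 to *Hprt1* (95% interval −1.60 to −0.20, limma adjusted P = 0.0835) and −0.95 to *Actb* (adjusted P = 0.205).

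Other growth factors and tissue mRNAs were read beside *Igf1* in LGXSM-33 and LGXSM-5, the strains with its highest and lowest mean. As the strains were picked by *Igf1* itself, the size of its difference beside those of other targets is a description only. Over all 67 targets 25 were higher in LGXSM-33, or 37.3%, and 1 was lower, or 1.49%, with a median difference of 0.15 over all targets. Over runs 3 of the 67, or 4.48%, passed, all of them higher. These were *Igf1*, *Mmp9* and *Atg7*, an autophagy gene in none of the lists that was 0.88 higher (SE 0.16, adjusted P = 0.00153 over runs) and is named because so few passed. As a ratio to the references none of the 3 passed over runs, with *Igf1* 1.63 higher (adjusted P = 0.0579), *Atg7* 0.60 higher (adjusted P = 0.365) and *Mmp9* at −0.02 (adjusted P = 0.979). No other list member passed over runs (adjusted P of 0.104 or more).

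Among 9 other secreted growth factors and signals, 3 were higher in LGXSM-33, 1 was lower and 5 did not pass, with a median difference of 0.24. *Fgf18*, a fibroblast growth factor that acts on chondrocytes, was 0.89 higher (SE 0.20, adjusted P = 0.000273). *Gdf5*, a joint-forming member of the BMP family, was 0.75 higher (SE 0.21, adjusted P = 0.00483), at a median signal of only 9. *Tgfb1*, which encodes transforming growth factor beta, was 0.38 higher (SE 0.08, adjusted P = 0.000208). *Vegfa*, the main growth factor of blood vessels, was 0.31 lower (SE 0.09, adjusted P = 0.00814). It was the only target of either panel that passed as lower in LGXSM-33, and it did not pass as a ratio to the references (−0.05, adjusted P = 0.752) or without normalization (−0.04, adjusted P = 0.921). Of the 9, 2 passed as higher with the ratio, *Fgf18* and *Gdf5*, and 3 without normalization, these and *Pthlh*, whose median signal was 5.25. The growth plate signals *Ihh* and *Pthlh* differed by 0.24 and 0.32 in the deposited values and did not pass.

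Of 5 receptors and signal carriers of the TGF-beta and BMP pathways 4 were higher, with a median difference of 0.21. These were the receptor *Tgfbr1*, by 0.39 (SE 0.08, adjusted P = 0.000173), and the intracellular carriers *Smad1*, *Smad2* and *Smad4*, by 0.26, 0.21 and 0.21. As a ratio to the references 1 of the 5 passed, *Tgfbr1*, and without normalization 0. The BMP antagonist *Chrdl1* differed by 0.03.

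The cartilage matrix list held 7 mRNAs, among them those of the transcription factors *Sox9* and *Sox5*. Of the 7, 5 were higher in LGXSM-33 and 0 lower in the deposited values, with a median difference of 0.47. As a ratio to the references 3 passed, *Acan*, *Comp* and *Sox9*, and without normalization 2, *Acan* and *Comp*. *Acan*, the large proteoglycan of cartilage, was 1.37 higher (SE 0.27, adjusted P = 3.92e-05), about as much as *Igf1*. *Comp*, a matrix protein of cartilage and tendon, was 1.15 higher (SE 0.25, adjusted P = 0.000248), and *Sox9*, the transcription factor that defines chondrocytes, 0.68 higher (SE 0.22, adjusted P = 0.0119). *Mia1* and *Sox5* were 0.42 and 0.39 higher, whereas *Col2a1* differed by 0.45 without passing (adjusted P = 0.183). The summed signal of the 4 cartilage markers *Col2a1*, *Acan*, *Comp* and *Sox9* ranged from 5444.5 to 10173 in LGXSM-33 and from 3005 to 6169.5 in LGXSM-5, and 3 of these 4 passed. The part of cartilage content in the *Igf1* difference was not tested.

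Of 6 mRNAs of hypertrophic cartilage and matrix turnover 3 were higher in the deposited values, with a median difference of 0.75. As a ratio to the references 2 passed, *Adamts5* and *Col10a1*, and without normalization 1, *Adamts5*. *Mmp9*, a gelatinase of osteoclasts and marrow cells, was 0.83 higher over assay replicates (SE 0.11, adjusted P = 2.01e-09) and over runs (adjusted P = 0.0116). Its signals ran from 77 to 593.5 with a median of 176 in LGXSM-33 and from 72 to 332 with a median of 257 in LGXSM-5, and it differed by −0.02 as a ratio to the references (adjusted P = 0.92) and by −0.01 without normalization (adjusted P = 0.989). *Adamts5*, which cuts aggrecan, was 0.67 higher (SE 0.12, adjusted P = 4.46e-06) and *Col10a1*, the collagen of hypertrophic chondrocytes, 1.01 higher (SE 0.37, adjusted P = 0.0298). The summed signal of the hypertrophic markers *Col10a1* and *Mmp13* overlapped, at 697.5 to 1429.5 in LGXSM-33 and 511 to 1241 in LGXSM-5. *Mmp13*, the collagenase of late hypertrophic cartilage, differed by 0.27 (adjusted P = 0.224).

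Of the 3 bone mRNAs, *Bglap1*, which encodes osteocalcin, and *Col1a1* were 0.44 and 0.34 higher in the deposited values, and *Runx2* differed by 0.11. As a ratio to the references *Col1a1* alone passed, by 0.57 (adjusted P = 0.0393), and without normalization 0 of the 3. The summed signal of *Col1a1* and *Runx2* ranged from 22712 to 27979.5 in LGXSM-33 and from 11453 to 25490 in LGXSM-5, and *Bglap1* from 788.5 to 3771 with a median of 1531.2 and from 558.5 to 2271 with a median of 1731. None of 5 fat mRNAs passed in the deposited values, with a median difference of −0.11, and with the ratio 1 passed as lower, *Nampt*, by −0.27 (adjusted P = 0.0466). The summed signal of *Adipoq*, *Lep* and *Retn* was low in both lines, at 39.5 to 126 and 51 to 85.5. None of 4 immune mRNAs passed in the deposited values, with a median difference of −0.06. Of the 2 markers of immune cells and marrow, *Mmp9* was higher in the deposited values but not with the ratio or without normalization, and *Ccl3*, a chemokine of macrophages, differed by −0.34 (adjusted P = 0.467), with signals of 39 to 128 in LGXSM-33 and 51 to 465 in LGXSM-5, and passed as lower without normalization, by −0.90 (adjusted P = 0.0451). No marker was at 0 in any assay replicate. The part of these tissues in the *Igf1* difference was not tested.

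**Figure D5:**
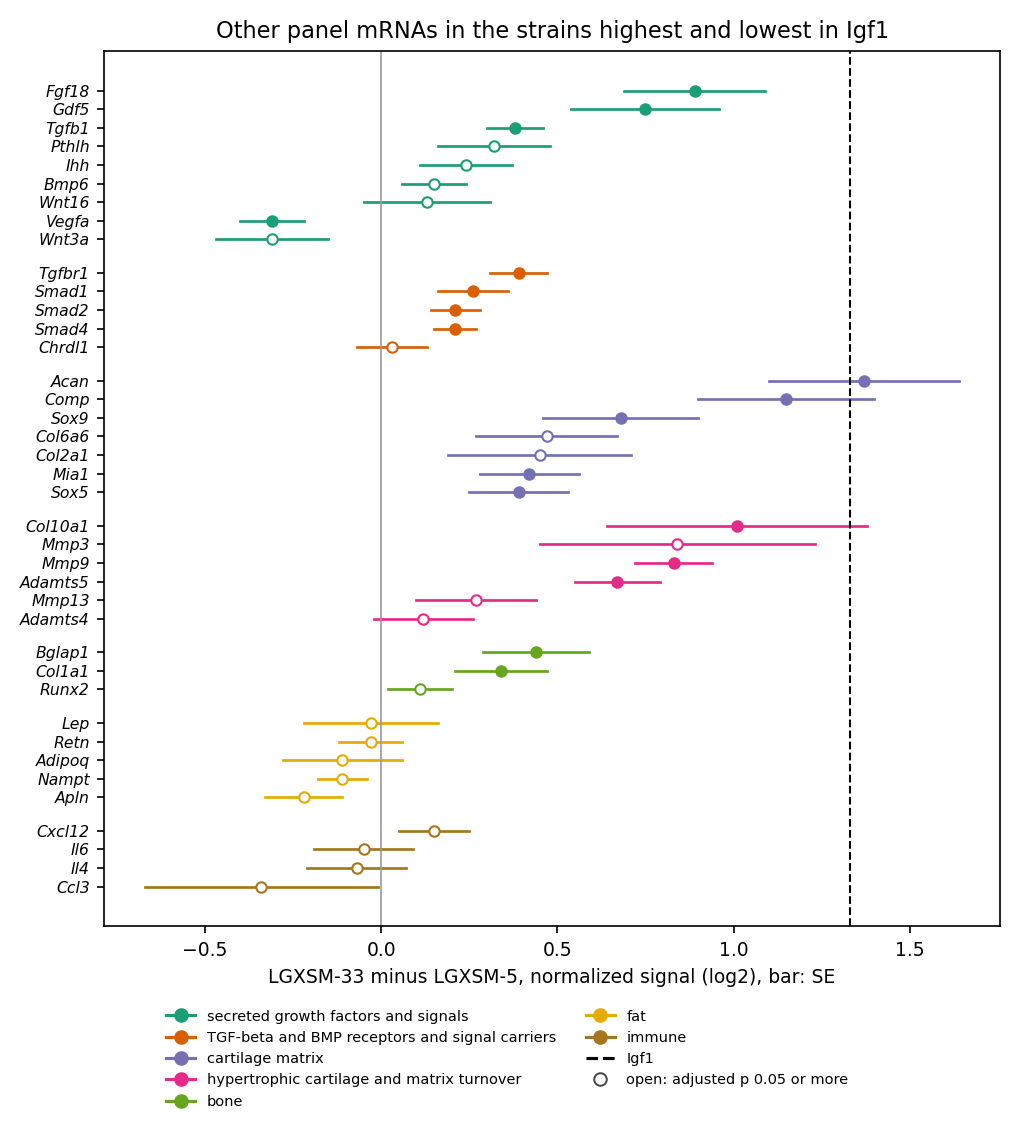
LGXSM-33 minus LGXSM-5 in normalized signal (log2, horizontal axis) with its SE for 39 other mRNAs grouped by role, over assay replicates. Filled circles have an adjusted P under 0.05 and the dashed line marks *Igf1* at 1.33. *Acan*, *Comp* and *Col10a1* lie nearest the *Igf1* line, the fat mRNAs lie below 0 and *Vegfa* is the only filled circle to the left of 0.

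Across the 8 strain means of the deposited values, the mRNAs most like *Igf1* among the other 66 targets were *Tgfbr1* (Pearson r = 0.955, Spearman rho = 0.976), *Nfkb1* (r = 0.879, rho = 0.857) and *Cdkn1a* (r = 0.848, rho = 0.786). The median r over the 66 targets was 0.363, and 15 had r over 0.7. *Nfkb1* encodes a subunit of the transcription factor NF-kappaB, and *Cdkn1a* encodes p21, an inhibitor of cell cycle kinases. These correlations describe 8 points that share sections and, for the first panel, wells and reference genes. The *Tgfbr1* means ran from −0.25 ± 0.16 (SD, n = 9) in LGXSM-5 and −0.13 ± 0.24 (SD, n = 9) in LGXSM-35 to 0.13 ± 0.10 (SD, n = 12) in LGXSM-6 and 0.14 ± 0.17 (SD, n = 12) in LGXSM-33, so that its range was less than that of *Igf1* while its order was nearly the same. The LGXSM-35 mean keeps Signal 9 as deposited, and no recomputed mean is given. The r of *Tgfbr1* was 0.944 to 0.980 when each strain was left out in turn and 0.989 without LGXSM-33 and LGXSM-5.

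The places in this order depended on the normalization. With recomputed values *Tgfbr1* stayed first (r = 0.921), but *Cdkn1a* was at rank 5 (r = 0.833) and *Nfkb1* at rank 8 (r = 0.821), behind *Comp*, *Tgfb1* and *Smad2*. As a ratio to the references *Tgfbr1* was at rank 4 (r = 0.816), behind *Ddr2*, which encodes a collagen receptor (r = 0.892), *Adamts5* (r = 0.887) and *Comp* (r = 0.883), while *Cdkn1a* fell to rank 13 (r = 0.675) and *Nfkb1* to rank 19 (r = 0.598). Without normalization *Comp* was first (r = 0.942) and *Cdkn1a* second (r = 0.888), with *Tgfbr1* at rank 17 (r = 0.763) and *Nfkb1* at rank 25 (r = 0.697).

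Over the deviations of the 76 assay replicates from their strain means *Tgfbr1* had r = 0.484 with *Igf1*, and *Nfkb1* had r = 0.340, where the 32 other targets of the first panel ranged from −0.161 to 0.647 with a median of 0.313. No recomputed values are given for these correlations within strains. For *Cdkn1a*, in the second panel, wells could not be matched. Without LGXSM-33 and LGXSM-5, *Nfkb1* had r = 0.804 and *Cdkn1a* r = 0.739.

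The mRNAs least like *Igf1* over strain means were *Vegfa* (r = −0.735, rho = −0.810), *Ulk1*, which encodes a kinase that starts autophagy (r = −0.579, rho = −0.500), and *Ccl3* (r = −0.517, rho = −0.548). *Vegfa* was lowest in LGXSM-33, at −0.22 ± 0.26 (SD, n = 12), and highest in LGXSM-35, at 0.26 ± 0.17 (SD, n = 9). The correlations changed with the normalization. For *Vegfa* r was 0.180 as a ratio to the references and 0.572 without normalization, and for *Ulk1* r was −0.741 as a ratio to the references and 0.472 without normalization. *Ccl3* had r = −0.216 and −0.027 under those settings and r = 0.161 with *Igf1* within strains. Without LGXSM-33 and LGXSM-5, r was −0.604 for *Vegfa*, −0.765 for *Ulk1* and −0.580 for *Ccl3*. With each strain left out in turn, r was −0.911 to −0.618 for *Vegfa* and −0.702 to −0.471 for *Ulk1*. For *Ccl3* it was −0.657 to −0.299, the weakest without LGXSM-35.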

How the data were processed

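The QuantiGene Plex assay captures each mRNA from the homogenate on coded beads and reads branched DNA bound to it, without RNA isolation. The authors deposited, for each panel and assay replicate, log10 signals and normalized log10 values. The normalized ones are what the reference genes of a panel left unexplained in a linear regression of the target on them. The methods mention biological and technical replicates and a subtracted background, and whether the deposited signals precede that subtraction is not stated. The deposited tables of strain averages and fold changes were not used. The deposited tables name no genome build, and no coordinates or probe sequences were used here. The *Igf1* symbol matched a RefSeq gene (GRCm38.p6), used for its name only.

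All values were multiplied by 3.322 to the log2 scale, with all columns and targets kept (0 columns unused). Strain tests used limma 3.58.1 (R 4.3.3) on all 67 targets, with Benjamini-Hochberg adjustment over 67 F tests or 1876 pair tests and a threshold of 0.05. Other steps ran in Python 3.11.15 (scipy 1.17.1, numpy 2.4.6, matplotlib 3.10.9, pandas 2.3.3). Shares of variance between strains, called heritability below, came from one-way variance components over assay replicates or runs. Healing labels were compared over strain means, as 3 strains against 3. The fits and variance components were tested on simulated data with independent signals and no runs. That test cannot check P values over repeats of the same tissue. Genes were named if they were *Igf1*, 1 of the 3 highest or 3 lowest correlations with it over strain means, a list member that passed in LGXSM-33 against LGXSM-5, or a reference gene. Other genes were named after their values were seen. *Igf1* and the lists were chosen with earlier results of these data known. Alternatives were other normalizations, a median signal of at least 20, which kept 49 targets, other moderation, Tukey's test and leaving out strains or signals. Runs of neighbours, ratios to *Actb* alone and the removal of 3 SM/J signals were chosen after seeing the data.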

Additional observations from a re-analysis of the deposited data

How the results depend on the processing

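The strain F test for *Igf1* passed under 36 of 38 alternatives, most of which kept assay replicates as the unit and so counted the same repeats. Over runs it passed at adjusted P = 0.0196 in the deposited values, 0.0218 recomputed, 0.0201 with *Hprt1*, 0.00864 with *Actb* and 0.00837 without normalization. Its call was lost only over runs, with the ratio to the 3 reference genes (adjusted P = 0.0596) or to *Gapdh* (0.142). Leaving out each signal number gave adjusted P values of 2.59e-11 to 1.97e-09, 15 to 18 of 28 pairs, 5 or 6 of the 11 fixed pairs and a heritability of 59% to 65%. The other alternatives outside the runs gave 12 to 19 pairs, 4 to 7 of the 11 and a heritability of 46% to 74.1%, with Tukey's test at 14 pairs. Over runs, pairs that passed numbered 2 in the deposited and the recomputed values, 1 with the ratio to the 3 references, 0 with *Gapdh*, 4 with *Hprt1*, 5 with *Actb* and 6 without normalization. Of the 11 fixed pairs 0, 0, 0, 0, 2, 2 and 3 passed in the same order, and heritability over runs with *Gapdh* was 28.2%. Shares over all targets are given for the deposited values alone (2.88% of pairs over runs), so pair counts under other normalizations have none beside them. Without normalization the median difference of LGXSM-6 minus SM/J over the first panel was itself 1.97. The signal number as a replicate block left 16 pairs, without LGXSM-6 minus SM/J (0.40, adjusted P = 0.0801) and LGXSM-6 minus C57BL6/J (0.35, adjusted P = 0.115). It does not pair the strains, as the deviations of like-numbered signals had r from −0.38 to 0.44 over the 28 pairs of strains, with 7 over 0.1.

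Among the fixed pairs, signs turned as follows, over assay replicates and then over runs. MRL/MpJ minus C57BL6/J was −0.11 and −0.11 with the ratio to the 3 references, −0.35 and −0.35 with *Gapdh*, −0.18 and −0.18 with *Hprt1*, and −0.02, −0.04 and −0.05 without Signals 1, 2 and 3 (−0.05 to 0.21 over all signal numbers). LGXSM-6 minus SM/J was −0.78 and −0.69 with the ratio to the 3 references, −1.22 and −1.15 with *Hprt1*, and −1.49 and −1.41 with *Actb*. LGXSM-6 minus LG/J was −0.18 and −0.25 with *Hprt1*, and −0.09 and −0.16 with *Actb*. Without normalization, LG/J minus SM/J was 0.24 and 0.24, LGXSM-5 minus SM/J 0.24 and 0.19, LGXSM-35 minus LG/J 0.13 and 0.08, and LGXSM-35 minus SM/J 0.37 and 0.32. Healers minus non-healers was 0.37 without normalization, 0.06 without LG/J and 0.08 without LGXSM-33, and −0.35 to 0.08 over the strains left out. The correlation of *Vegfa* with *Igf1* was 0.180 with the ratio and 0.572 without normalization, and that of *Ulk1* −0.741 and 0.472. In LGXSM-33 against LGXSM-5, 26 targets passed in the deposited values, 21 with the ratio and 14 without normalization. The causes were not tested. With 1 sample per strain, the precision of a strain mean rests on the spread of its signals.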
